A study of Mus musculus with 5 samples.

Results

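The voltage-gated and potassium ion channel genes were taken by symbol from the deposited expression tables of developing mouse cerebellum. The rule kept every potassium channel gene (Kcn followed by a letter and a number), every Scn sodium channel subunit written with a or b after its number, every Cacna, Cacnb and Cacng calcium channel subunit (Cacna2d auxiliary subunits included) and the Hcn genes. It found 102 genes of 15971. The sodium channel gene listed as Scn2a1 falls outside it. The rule reads symbols only, although it was chosen with earlier results of these data known.

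The study made single-cell 3′ RNA libraries from mouse cerebellum, and 5 libraries of 6987 cells were used. They are called here RL-e13 replicate 1 (706 cells), RL-e13 replicate 2 (1818 cells), RL-e14 replicate 1 (1046 cells), RL-e14 replicate 2 (741 cells) and EomesCreER-e16 (2676 cells). The series concerns the rhombic lip, a germinal zone of the hindbrain, in relation to medulloblastoma. The RL titles also carry the tag UT, and the labels define neither UT nor EomesCreER. The labels give no strain, treatment, number of animals or cell sort, so the spread between libraries may be technical. The RL-e13 replicate 2 library carries an age tag of e14 beside its e13 title and was placed by its title. The e16 age exists only as the EomesCreER library, so age, label and library cannot be told apart there. Total UMIs (unique molecular identifiers, which count captured RNA molecules) ran between 13607965 and 33502151 a library, and the median per cell was 10346 in the e16 library against 15855 to 19970 in the RL libraries.

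Ion channels let sodium, calcium or potassium cross the cell membrane. Voltage-gated sodium and calcium channels carry the inward currents of the action potential and of calcium entry, and potassium channels set the resting potential and repolarise the cell. HCN channels open on hyperpolarisation and carry a mixed cation current. In the cerebellum, Atoh1 marks progenitors of the rhombic lip lineage, Barhl1 and Mapt mark its neurons as they differentiate, and Eomes with Lmx1a mark the unipolar brush cell lineage.

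Cells were placed in 5 gates by the RNA of those genes, with a gene counted as on at 100 CPM or more in a cell, where CPM is the UMI count of a gene scaled to 1000000 UMIs. The gates were Sox2 (Sox2 on, Atoh1 not on), Atoh1 (Atoh1 on, Sox2 not on), Barhl1 with Mapt, Eomes with Lmx1a, and Tlx3 with Lhx1, and a cell that met Barhl1 with Mapt and another 2-gene gate was placed in the other. The 2-gene gates took precedence over the Sox2 and Atoh1 gates. The Atoh1 gate therefore leaves out 188 cells that met its rule and also had Barhl1 and Mapt on. Of 1484 cells with Eomes and Lmx1a on, 1325 also had Barhl1 and Mapt on. A gate is a range of cells chosen by a threshold, not a cell type. In all, 5410 cells fell in a gate, and 783 cells with both Sox2 and Atoh1 on fell in none. A profile is the mean CPM over the cells of a gate in a library, and 19 profiles of 20 cells or more were used. The Sox2 gate had profiles in the 4 RL libraries, and the Atoh1 gate had them in all 5. The Barhl1-Mapt gate had profiles in RL-e13 replicate 2, both RL-e14 libraries and e16, the Eomes-Lmx1a gate in RL-e13 replicate 2, RL-e14 replicate 2 and e16, and the Tlx3-Lhx1 gate in both RL-e14 libraries and e16. Granule neuron markers summed to 12752 to 15822 CPM in the Barhl1-Mapt gate, against 2749 to 5519 CPM in the Atoh1 gate. They also summed to 11259 to 14418 CPM in the Eomes-Lmx1a gate and 10919 to 12173 CPM in the Tlx3-Lhx1 gate. That list therefore does not single out the Barhl1-Mapt gate. Progenitor markers summed to 9012 to 15522 CPM in the Sox2 gate. The list of Tlx3 and Lhx1 neuron markers summed to 1770 to 3298 CPM in the gate of that name and to 3119 to 3896 CPM in the Barhl1-Mapt gate. The Tlx3-Lhx1 gate is therefore called by its rule alone. Summed GABAergic markers were at most 10.8 CPM in any profile outside the Sox2 gate, and microglial markers at most 5.95 CPM in any profile.

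Most channel genes were scarce at these ages. Of the 102 members, 58 stayed under 10 CPM in the mean of every gate, and 44 reached it in at least 1 gate. The highest mean among the 58 was 9.12 CPM, for Cacng7 in the Tlx3-Lhx1 gate. The number of members at 10 CPM or more was 12 in the Sox2 gate, 20 in the Atoh1 gate, 37 in the Barhl1-Mapt gate, 34 in the Eomes-Lmx1a gate and 31 in the Tlx3-Lhx1 gate. Of the 12 in the Sox2 gate, 9 were also at 10 CPM or more in the Barhl1-Mapt gate. A further 13 members first reached 10 CPM in the Atoh1 gate, 15 in the Barhl1-Mapt gate, and 4 in a branch gate alone (Cacna2d2, Kcna2, Kcnh4 and Kcnk3). The counts rest on means over libraries, and e16 has a profile in every gate but Sox2. Of the 13, Cacna2d1 was at 156 CPM in the Atoh1 gate of e16 against 7.55 to 13.6 CPM in the RL libraries. Cacna1b was there at 21.6 CPM against 7.97 to 10.9 CPM. Of the 15, Kcnip4 was at 48.5 CPM in the Barhl1-Mapt gate of e16 against 0.906 to 3.29 CPM in the RL libraries. The share of all genes at 10 CPM or more by gate was not counted, so these counts are a description.

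The summed level of the 102 members was also higher in the 2-gene gates. It averaged 738 ± 46.2 CPM in the Sox2 gate (SD, n = 4 libraries), 837 ± 209 CPM in the Atoh1 gate (n = 5), 1768 ± 361 CPM in the Barhl1-Mapt gate (n = 4), 1824 ± 350 CPM in the Eomes-Lmx1a gate (n = 3) and 1721 ± 357 CPM in the Tlx3-Lhx1 gate (n = 3). The Sox2 and Atoh1 gates overlapped across libraries, and every profile of the 2-gene gates, at 1423 CPM or more, lay above every Sox2 and Atoh1 profile. The highest Atoh1 profile was e16, at 1199 CPM, against 672 to 811 CPM in the 4 RL libraries. The UMI tags count molecules at the 3′ end, so CPM was not divided by transcript length.

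**Figure D1:**
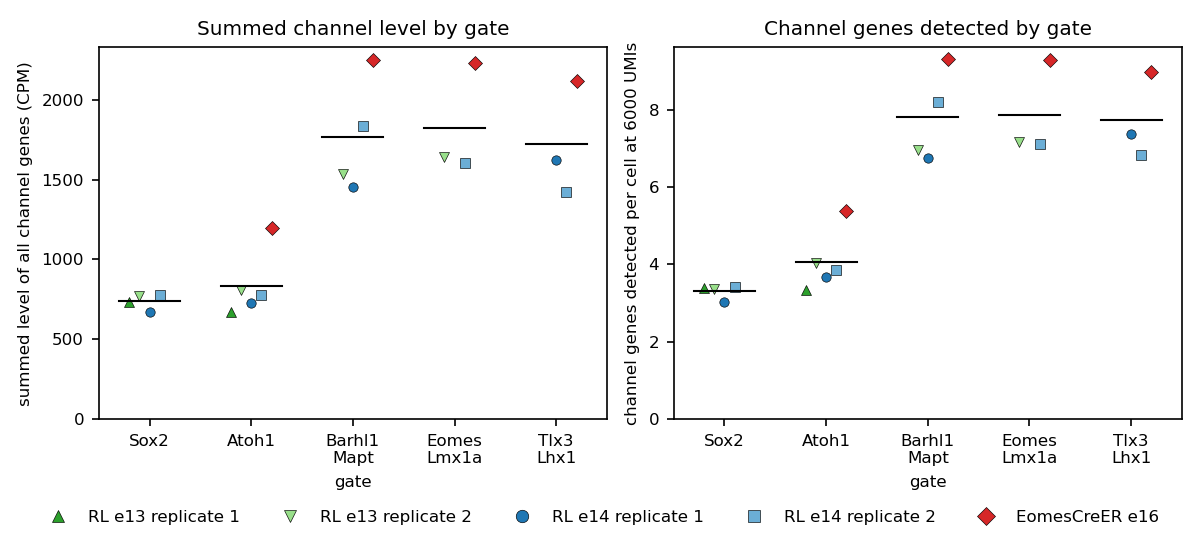
Summed level of the 102 channel genes in CPM (left) and channel genes detected per cell at 6000 UMIs (right) by gate, with 1 point per library and a line for the mean over libraries. In the left panel the profiles of the 2-gene gates sit between 1423 and 2251 CPM, above all Sox2 and Atoh1 profiles, and e16 is the highest point in each gate where it has one.

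Channel genes per cell were compared at equal depth. With every cell thinned to 6000 UMIs, a cell held 3.30 ± 0.186 channel genes in the Sox2 gate, 4.05 ± 0.784 in the Atoh1 gate, 7.80 ± 1.19 in the Barhl1-Mapt gate, 7.85 ± 1.24 in the Eomes-Lmx1a gate and 7.72 ± 1.12 in the Tlx3-Lhx1 gate (SD over libraries, n = 4, 5, 4, 3 and 3). The number of all genes per cell at that depth was 2566, 2484, 2532, 2556 and 2519 in the same gates. Thinning left out 24, 5, 27, 38 and 3 shallower cells of the profiles used in these gates, and without thinning the channel genes per cell were 6.92, 9.50, 14.8, 13.5 and 14.8.

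The families differed in which gate they appeared in. The Kcna, Kcnb, Kcnc, Kcnd, Kcnf, Kcng, Kcns and Kcnv groups held 20 voltage-gated potassium alpha subunits. Of these 20, 0 reached 10 CPM in the Sox2 gate, 4 did in the Atoh1 gate and 6 in each 2-gene gate. Their summed level was 35.4 ± 7.54, 146 ± 51.0, 389 ± 59.2, 359.8 ± 23.8 and 458 ± 75.4 CPM in the Sox2, Atoh1, Barhl1-Mapt, Eomes-Lmx1a and Tlx3-Lhx1 gates (SD over libraries). The Kcnq and Kcnh genes, also voltage-gated, were counted apart. The 4 Kcnq genes summed to 49.9, 51.7 and 58.7 CPM in the Sox2, Atoh1 and Barhl1-Mapt gates. The 8 Kcnh genes summed to 8.47, 22.7 and 44.7 CPM there. The 10 inward rectifiers summed to 16.7, 55.7 and 117 CPM in the Sox2, Atoh1 and Barhl1-Mapt gates, and the 4 alpha2delta auxiliary calcium subunits to 9.23, 43.4 and 153 CPM. In the Atoh1 gate the alpha2delta sum was 161 CPM in e16 against 9.87 to 17.7 CPM in the RL libraries. In the Barhl1-Mapt gate it was 412 CPM against 41.9 to 92.3 CPM, and the Sox2 gate had no e16 profile. The inward rectifier sum in the Atoh1 gate was 106 CPM in e16 against 34.1 to 53.9 CPM. Sodium channel alpha subunits were already present in the Sox2 gate, at 48.0 CPM, beside 55.7 CPM in the Atoh1 gate and 115 CPM in the Barhl1-Mapt gate. The gamma subunits of the Cacng family summed to 253 CPM in the Sox2 gate, 165 CPM in the Atoh1 gate and 296 CPM in the Barhl1-Mapt gate, while Cacng4 and Cacng2 within it ran in opposite directions between the Sox2 and Atoh1 gates.

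**Figure D2:**
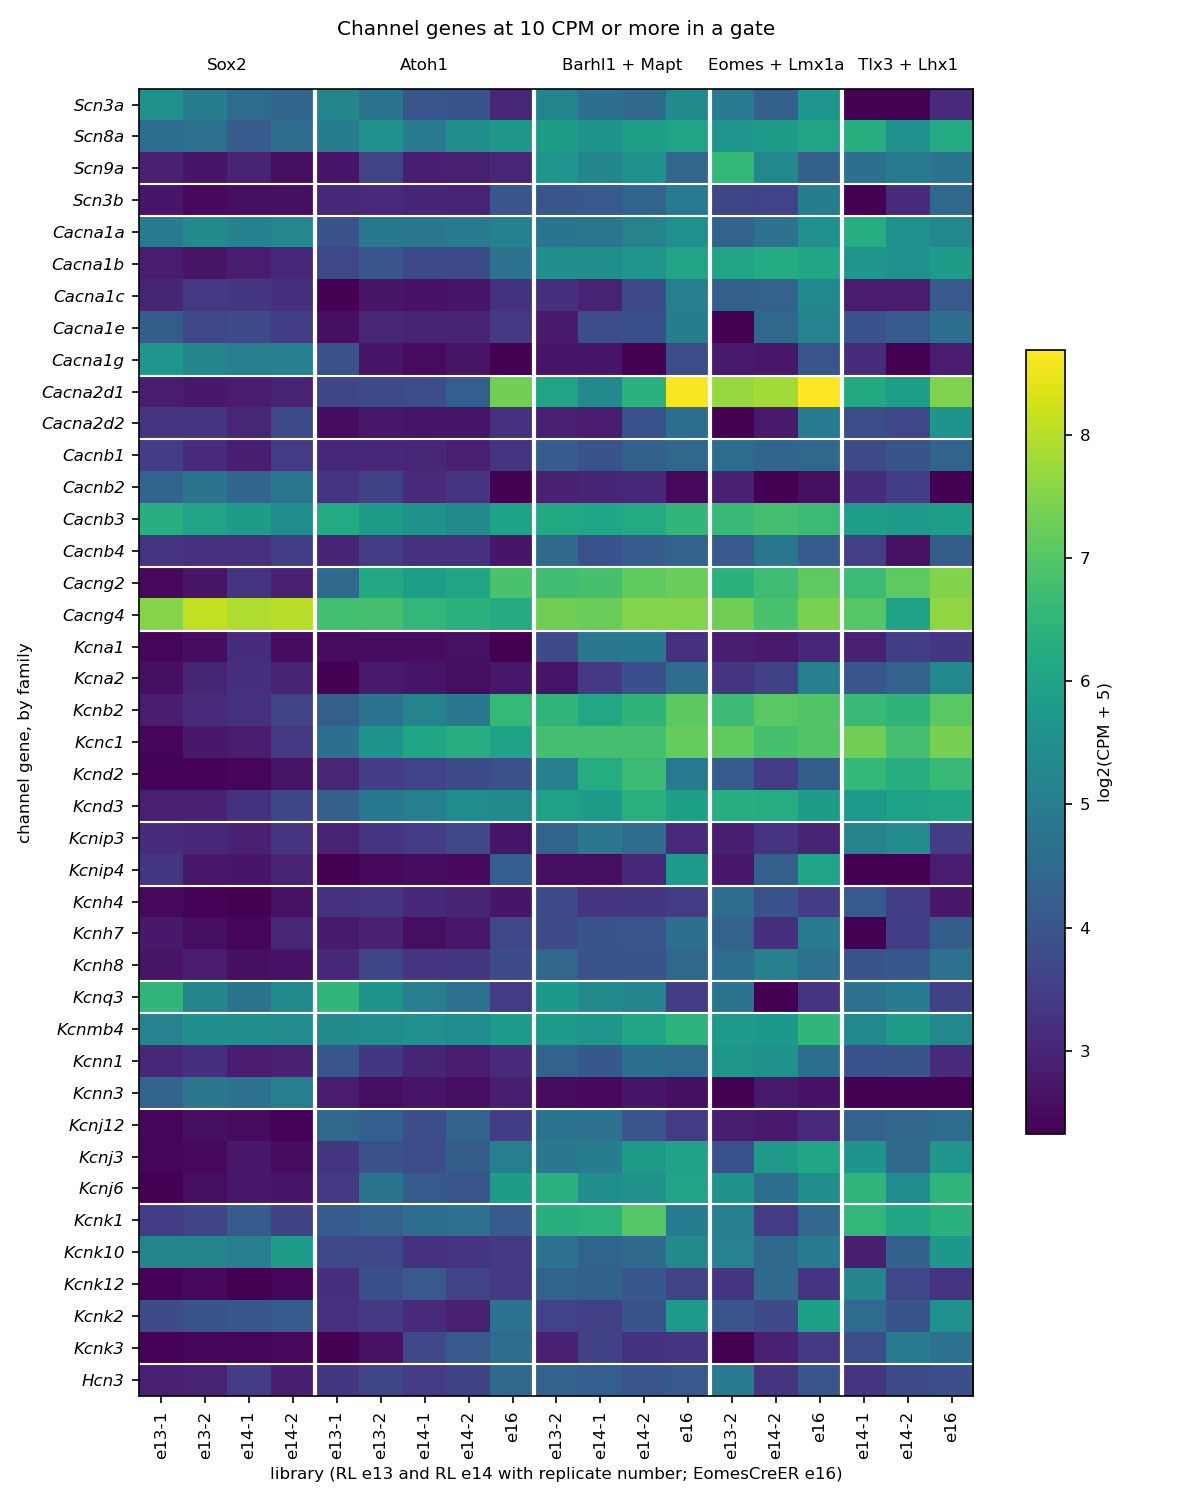
Level of channel genes that reach 10 CPM in a gate (rows, grouped by family) in each gate and library (columns, e13 to e16 within a gate), coloured by log2 of CPM plus 5. Cacng4, Kcnk10, Kcnn3 and Cacna1g are high in the Sox2 columns, Cacng2, Kcnc1 and Kcnd3 appear in the Atoh1 columns, and Scn9a and Kcnd2 appear in the Barhl1-Mapt columns.

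Cacng4, a gamma-family subunit that is also known as an auxiliary subunit of AMPA glutamate receptors, held 31.8% of the summed channel level of the Sox2 gate. Its level there was 182, 270.2, 237 and 251 CPM in RL-e13 replicates 1 and 2 and RL-e14 replicates 1 and 2. In the Atoh1 gate it was 103, 107, 87.3 and 78.8 CPM in the same libraries and 70.1 CPM in e16, so the gates did not overlap. In the Barhl1-Mapt gate it stood again at 149 to 176 CPM in the 4 libraries.

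Kcnn3, a small-conductance calcium-activated potassium channel, was at 16.1, 23.7, 20.8 and 28.7 CPM in the Sox2 gate of the 4 RL libraries. It was between 0.878 and 2.21 CPM in the Atoh1 gate of the 5 libraries, at most 1.83 CPM in any Barhl1-Mapt or Eomes-Lmx1a profile, and at 0 in the 3 Tlx3-Lhx1 profiles. Cacna1g, the pore subunit of a low-threshold T-type calcium channel, was at 45.8, 32.3, 28.0 and 29.0 CPM in the Sox2 gate, against 9.84, 1.52, 0.696, 1.29 and 0 CPM in the Atoh1 gate of RL-e13 replicates 1 and 2, RL-e14 replicates 1 and 2 and e16. Cacnb2, a calcium channel beta subunit, had 16.1 to 23.3 CPM in the Sox2 gate and 0 to 7.004 CPM in the Atoh1 gate. These 3 genes reached 10 CPM in no other gate, and their means over all profiles fell under the 10 CPM that a gene needed to be tested, so no test is given for them.

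The first comparison set the Atoh1 gate over the Sox2 gate, to ask which channel genes differ between the Atoh1-positive progenitors and the Sox2-positive cells. It used a limma fit on log2(CPM + 5) over the 19 profiles with library as a block, on the 8510 genes whose mean over the profiles was at least 10 CPM, and an adjusted p (Benjamini-Hochberg over these genes) under 0.05. On this scale the change of a low gene is understated. Of the 102 members, 25 were tested, and 14 rose, 3 fell and 8 did not pass, where 9.66% of all tested genes rose and 11.4% fell. The filter takes a mean over profiles of which 10 of 19 are from the 2-gene gates, so it kept members that are high in those gates, and these counts, and those of the later comparisons, are a description. With the minimum at 3 CPM, 55 members were tested, of which 19 rose, 9 fell and 27 did not pass, where 20.3% of the 10853 genes tested passed, with 900 higher and 1303 lower. The median log2 difference of the 25 members was 0.78, against -0.04 over all genes tested. Scaling by trimmed means (TMM) moved the split over all genes to 1120 higher and 697 lower, against 822 higher and 967 lower, and left the members at 14 and 3. A fit of these 2 gates alone, whose filter does not read the 2-gene gates, tested 19 members, of which 9 rose and 7 fell, with a median difference of 0.05. In that fit 31.8% of 8434 genes passed, with 1016 higher and 1664 lower.

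Cacng2 (stargazin), the gamma-family subunit named for the ataxic stargazer mouse and known for trafficking AMPA receptors in granule cells, had 17.7, 66.4, 53.0, 63.3 and 111 CPM in the Atoh1 gate of RL-e13 replicates 1 and 2, RL-e14 replicates 1 and 2 and e16, against 0.53, 1.32, 4.75 and 2.50 CPM in the Sox2 gate of the RL libraries. Every Atoh1 profile lay above every Sox2 profile, and the lowest was RL-e13 replicate 1, with 55 cells. The difference was 2.89 ± 0.18 (log2, SE; limma adjusted p = 6.62e-09).

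Kcnc1, a fast delayed rectifier that lets neurons fire at high rates, had 20.7, 43.9, 62.9, 73.7 and 59.3 CPM in the Atoh1 gate and 0.311, 1.75, 2.14 and 5.61 CPM in the Sox2 gate, in the same orders of libraries. The gates did not overlap, and the difference was 2.80 ± 0.18 (limma adjusted p = 8.37e-09).

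The promoters of Cacng2 and Kcnc1 are shown with those of Kcnn3, whose pattern ran the other way, and of Kcnd2, which first reached 10 CPM a gate later. Each window is RefSeq's, on build GRCm38.p6, read 5′ to 3′ on the gene's strand from 250 bases before to 50 bases after the annotated start. Capitals mark the E-box CAGCTG, a form that basic helix-loop-helix factors such as Atoh1 can bind, or the GC box GGGCGG, each searched on both strands. The windows lie at chr15:78119231-78119530 (minus strand) for Cacng2, chr7:46396218-46396517 (plus strand) for Kcnc1, chr6:21215096-21215395 (plus strand) for Kcnd2 and chr3:89519914-89520213 (plus strand) for Kcnn3.
Cacng2: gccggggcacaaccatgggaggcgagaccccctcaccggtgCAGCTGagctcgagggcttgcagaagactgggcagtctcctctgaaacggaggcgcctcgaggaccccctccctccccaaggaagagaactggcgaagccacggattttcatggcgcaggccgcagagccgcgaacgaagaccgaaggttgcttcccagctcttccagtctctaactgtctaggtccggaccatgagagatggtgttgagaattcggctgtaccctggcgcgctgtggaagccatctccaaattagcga
Kcnc1: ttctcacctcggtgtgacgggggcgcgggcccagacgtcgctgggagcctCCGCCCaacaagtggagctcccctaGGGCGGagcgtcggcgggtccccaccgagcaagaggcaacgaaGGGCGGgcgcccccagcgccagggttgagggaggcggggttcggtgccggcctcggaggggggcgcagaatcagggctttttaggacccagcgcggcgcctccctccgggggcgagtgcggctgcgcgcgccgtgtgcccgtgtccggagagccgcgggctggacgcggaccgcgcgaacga
Kcnd2: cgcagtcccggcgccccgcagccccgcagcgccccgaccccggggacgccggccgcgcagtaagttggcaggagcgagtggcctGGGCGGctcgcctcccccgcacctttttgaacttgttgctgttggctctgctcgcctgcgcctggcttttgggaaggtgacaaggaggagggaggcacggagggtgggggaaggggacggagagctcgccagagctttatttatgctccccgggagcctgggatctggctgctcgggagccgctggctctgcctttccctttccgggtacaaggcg
Kcnn3: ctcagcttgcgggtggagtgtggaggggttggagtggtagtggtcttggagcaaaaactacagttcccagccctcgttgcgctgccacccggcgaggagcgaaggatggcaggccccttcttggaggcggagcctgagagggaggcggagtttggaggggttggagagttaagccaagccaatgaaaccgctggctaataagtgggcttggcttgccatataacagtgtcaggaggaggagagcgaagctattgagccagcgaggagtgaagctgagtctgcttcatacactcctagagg

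The Cacng2 window held 1 CAGCTG and 0 GC boxes. The Kcnc1 window held 3 GC boxes, the Kcnd2 window 1, and neither held the E-box. The Kcnn3 window held neither motif. Windows were found for 69 of the 102 members, some with several starts, which gave 98 windows. CAGCTG was in 26.5% of these and in 16.3% of all 32851 windows of that length, and GGGCGG in 49.0% of these and in 35.7% of all. A match to these letters is a description of the sequence and not of binding, and the motifs can share at most an end base.

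Kcnd3, an A-type potassium channel that inactivates fast, had 13.98, 24.9, 28.3, 36.8 and 34.7 CPM in the Atoh1 gate and 2.32, 2.50, 4.51 and 7.60 CPM in the Sox2 gate, a difference of 1.78 ± 0.16 (limma adjusted p = 3.46e-07). Kcnb2, a slow delayed rectifier, had 14.1, 21.8, 30.8 and 24.1 CPM in the Atoh1 gate of the RL libraries and 91.7 CPM in e16, against 2.16, 3.46, 4.34 and 7.44 CPM in the Sox2 gate, a difference of 1.73 ± 0.22 (limma adjusted p = 1.4e-05). Kcnj6, a G-protein-gated inward rectifier whose pore mutation causes granule cell loss in the weaver mouse, had 5.67, 22.4, 12.6, 11.0 and 51.9 CPM in the Atoh1 gate and 0, 0.917, 1.64 and 1.52 CPM in the Sox2 gate, a difference of 1.68 ± 0.26 (limma adjusted p = 0.000138). In all of them the lowest Atoh1 profile lay above the highest Sox2 profile.

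Scn8a, a main sodium channel of mature axon initial segments, had 27.3, 41.0, 25.5, 40.0 and 46.8 CPM in the Atoh1 gate, against 19.8, 21.5, 12.7 and 19.0 CPM in the Sox2 gate, and rose by 0.74 ± 0.18 (limma adjusted p = 0.00539). Cacna1b, the N-type calcium channel of presynaptic terminals, had 7.97 to 21.6 CPM in the Atoh1 gate and 1.30 to 3.27 CPM in the Sox2 gate, a difference of 1.05 ± 0.17 (limma adjusted p = 0.000162). Kcnj3, Cacna2d1, Kcnd2 and Kcnh8 also rose, with differences of 0.68 to 1.30. Each of the 14 was higher in the Atoh1 gate in 4 of 4 libraries. Cacna2d1 lost its call without RL-e14 replicate 2 (limma adjusted p = 0.11), and Kcnd2 and Kcnh8 lost theirs without RL-e14 replicate 1 or without RL-e13 replicate 2.

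The 3 members that fell were Kcnk10, Cacng4 and Kcnk2. Kcnk10, a mechano-gated 2-pore leak channel, had 8.51, 7.95, 4.39, 4.84 and 5.49 CPM in the Atoh1 gate, against 32.4, 32.0, 27.7 and 52.8 CPM in the Sox2 gate, with no overlap. It fell by 1.99 ± 0.31 on the log2 scale (limma adjusted p = 0.000145). Cacng4 fell by 1.40 ± 0.22 (limma adjusted p = 0.000144). Kcnk2, a close relative of Kcnk10, had 2.43 to 5.56 CPM in the Atoh1 gate of the RL libraries and 21.8 CPM in e16, against 8.80 to 12.5 CPM in the Sox2 gate. It fell by 0.86 ± 0.20 (limma adjusted p = 0.00475), a call lost without RL-e14 replicate 2 (adjusted p = 0.63). Progenitor markers summed to 1532 to 3012 CPM in the Atoh1 gate against 9012 to 15522 CPM in the Sox2 gate, immediate early genes to 626 to 1415 CPM in all profiles outside the Sox2 gate against 1315 to 3457 CPM within it, and roof plate markers to at most 39.6 CPM outside the Sox2 gate against 88.6 to 146 CPM within it. Their part in these differences was not tested.

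**Figure D3:**
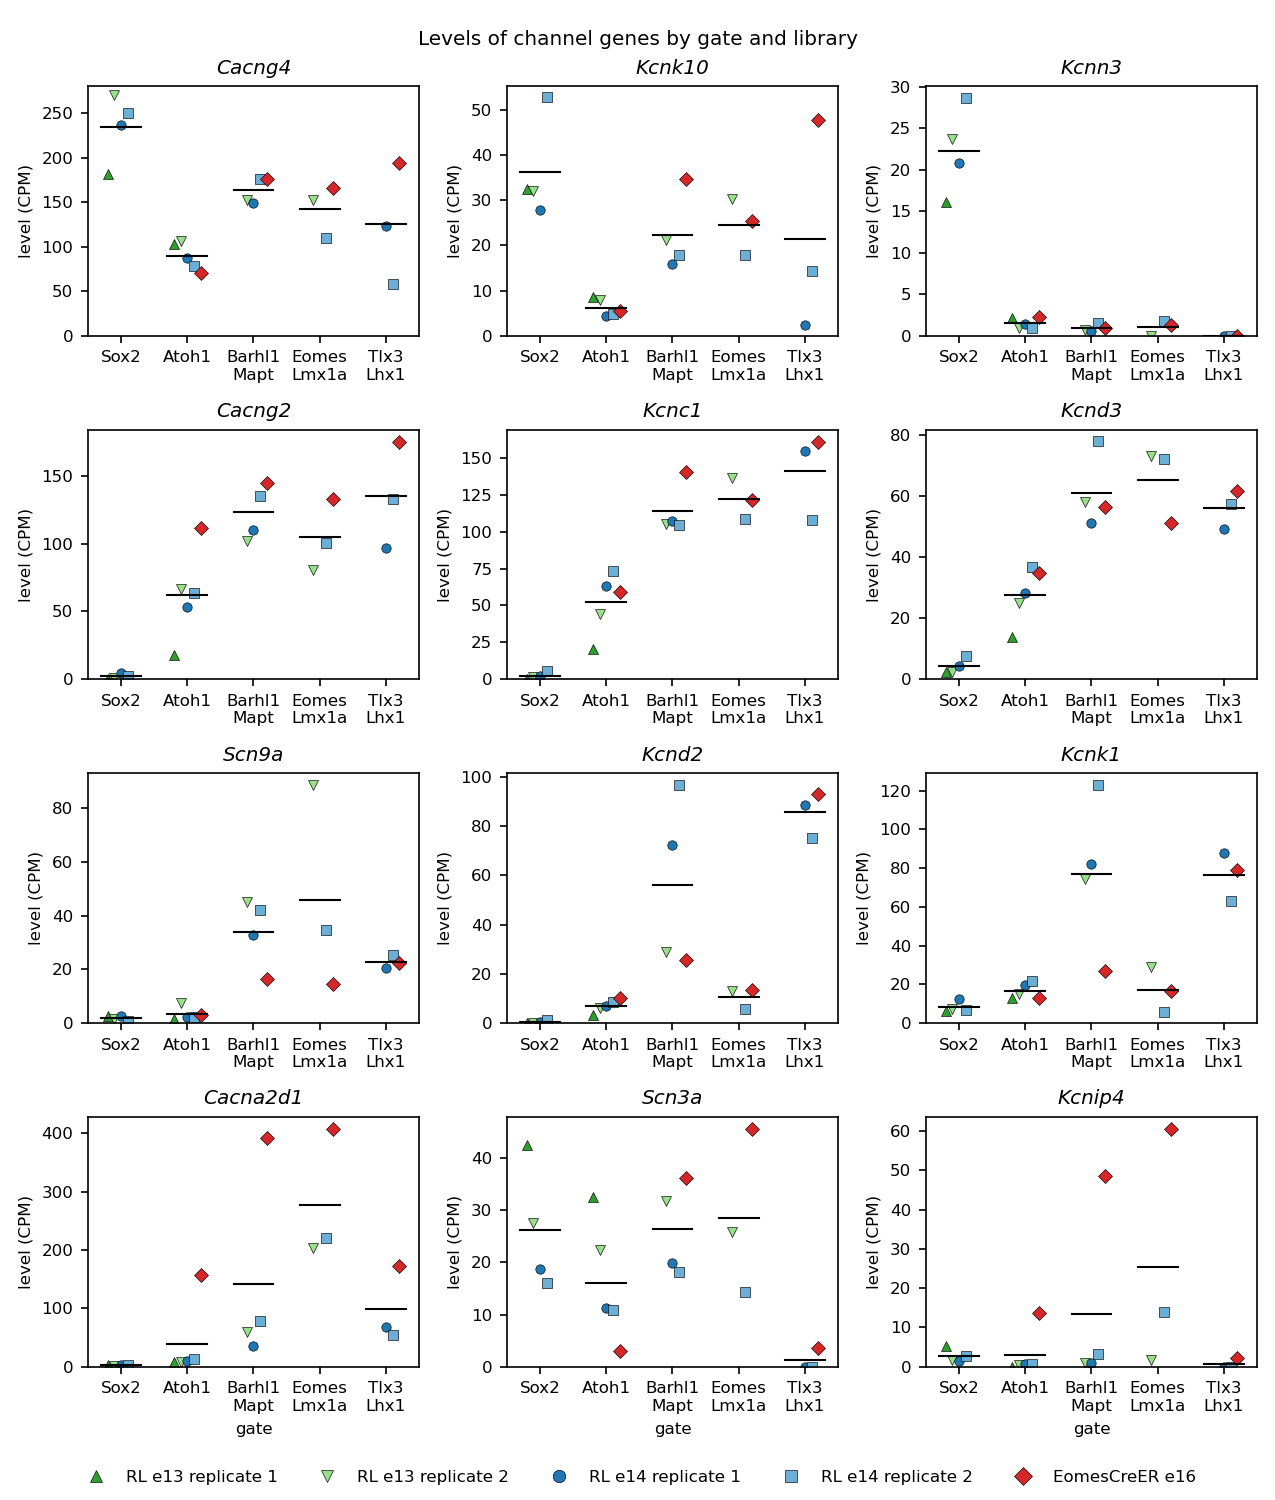
Level in CPM (vertical axis, 1 panel per gene, each from 0) of channel genes by gate (horizontal axis), with 1 point per library and a line for the mean. Cacng4 is highest in the Sox2 gate, Cacng2, Kcnc1 and Kcnd3 step up at the Atoh1 gate, and Kcnd2 and Kcnk1 are high in the Barhl1-Mapt and Tlx3-Lhx1 gates and low in the Eomes-Lmx1a gate.

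The second comparison set the Barhl1-Mapt gate over the Atoh1 gate, the step into neurons. Of the 25 members tested, 23 rose, 0 fell and 2 (Kcnq3 and Cacna1a) did not pass in limma, where 22.1% of all genes tested rose and 19.7% fell. Without adjustment, 23 members had limma p under 0.05, a threshold at which no share of all genes is given here. With the minimum at 3 CPM, 35 of 55 rose and 1 fell, where 19.0% of the genes tested rose and 17.1% fell. The median log2 difference of the 25 was 0.95, against 0.02 over all genes. In the e16 library, 674 of 725 cells of the Barhl1-Mapt gate (93.0%) also held a UMI of Eomes or Lmx1a, as did 60.4 to 81.0% of them in the RL libraries with a profile. With the gate limited to cells without those UMIs, an alternative chosen after seeing the data, 13 of 27 members tested rose, where 9.95% of all genes tested rose. That limit also left RL-e14 replicate 2 without a Barhl1-Mapt profile, so the gate rested on 3 libraries.

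Scn9a, a sodium channel best known from sensory and sympathetic neurons, had 45.2, 32.7, 42.1 and 16.4 CPM in the Barhl1-Mapt gate of RL-e13 replicate 2, RL-e14 replicates 1 and 2 and e16, against 7.31, 2.27, 2.34 and 3.08 CPM in the Atoh1 gate of the same libraries. The gates did not overlap, and e16 was the lowest of the Barhl1-Mapt profiles. The difference was 2.20 ± 0.28 (limma adjusted p = 1.36e-05). Kcnd2, the A-type potassium channel prominent in adult granule cells, had 29.0, 72.5, 96.7 and 25.8 CPM in the Barhl1-Mapt gate and 6.06, 7.08, 8.66 and 10.00 CPM in the Atoh1 gate. It rose by 2.11 ± 0.31 (limma adjusted p = 4.84e-05), with both RL-e14 libraries well above RL-e13 replicate 2 and e16. Kcnk1, a weakly conducting 2-pore channel, had 74.5, 82.3, 123 and 27.0 CPM in the Barhl1-Mapt gate, against 15.1, 19.7, 21.4 and 13.2 CPM in the Atoh1 gate. It rose by 1.74 ± 0.33 (limma adjusted p = 0.000473), and e16 was again lowest.

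Cacna1b had 39.6, 39.7, 45.1 and 60.3 CPM in the Barhl1-Mapt gate, against 10.9, 8.35, 8.59 and 21.6 CPM in the Atoh1 gate. Its difference of 1.63 ± 0.17 (limma adjusted p = 2.48e-06) came with no overlap. Cacna2d1, the alpha2delta subunit to which gabapentin binds, had 60.3, 34.7, 78.9 and 391 CPM in the Barhl1-Mapt gate, against 8.54, 9.15, 13.6 and 156 CPM in the Atoh1 gate. Its e16 values stood far above the RL values in both gates, so the gates overlapped across libraries, and within each library the Barhl1-Mapt gate was higher. It rose by 1.86 ± 0.33 (limma adjusted p = 0.000269), and with the gate limited to cells lacking Eomes and Lmx1a UMIs, in 3 libraries, the adjusted p was 0.24. Kcnn1, a small-conductance calcium-activated channel, had 15.5, 11.9, 20.3 and 18.2 CPM in the Barhl1-Mapt gate, against 5.30, 2.84, 1.98 and 3.49 CPM in the Atoh1 gate, and rose by 1.27 ± 0.24 (limma adjusted p = 0.000493). The Kcnn1 call was also lost with the gate limited in that way (limma adjusted p = 0.25).

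Genes that had appeared by the Atoh1 gate rose further. Kcnc1 had 105, 107, 104 and 140.1 CPM in the Barhl1-Mapt gate, above its 43.9 to 73.7 CPM in the Atoh1 gate of the same libraries, and rose by 0.95 ± 0.18 (limma adjusted p = 0.000539). Cacng2 had 102, 109.8, 135 and 145 CPM and rose by 0.85 ± 0.18 (limma adjusted p = 0.00151). Cacng4 and Kcnk10, which had fallen between the Sox2 and Atoh1 gates, rose here by 0.83 ± 0.22 (limma adjusted p = 0.0067) and by 1.26 ± 0.31 (limma adjusted p = 0.00416). Both the first and this second comparison use the Atoh1 profiles, on opposite sides. Scn8a and Kcnmb4, an auxiliary subunit of large-conductance calcium-activated channels, rose by 0.49 and 0.43, with limma adjusted p of 0.0368 and 0.0448. The Scn8a call was lost without any 1 of the 5 libraries, and the Kcnmb4 call without any 1 except RL-e13 replicate 1. Scn3a and Kcnk2 lost their calls without RL-e14 replicate 2. Kcnj6 (1.24), Kcnb2 (1.24) and Kcnj3 (1.22), an inward rectifier, a delayed rectifier and the partner inward rectifier of Kcnj6, also rose. With the gate limited to cells lacking Eomes and Lmx1a UMIs, the calls of Cacng2, Cacng4, Kcnj3, Scn8a and Kcnmb4 were lost. Those of Kcnc1, Kcnk10, Kcnj6 and Kcnb2 were kept.

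The Eomes-Lmx1a gate was set over the Atoh1 gate in the third comparison, which shares its Atoh1 profiles with the second. Of the 25 members tested, 17 rose, 1 fell and 7 did not pass, where 22.3% of all genes tested rose and 23.6% fell. The median difference was 0.88, against -0.01 over all genes. Cacna2d1 was at 203, 219.6 and 407 CPM in the Eomes-Lmx1a gate of RL-e13 replicate 2, RL-e14 replicate 2 and e16, against 8.54, 13.6 and 156 CPM in the Atoh1 gate of those libraries. It held 15.2% of the summed channel level of the Eomes-Lmx1a gate, and its difference was 3.09 ± 0.36 (limma adjusted p = 5.92e-06). Scn9a (2.34 ± 0.31, limma adjusted p = 1.62e-05), Kcnn1 (2.15 ± 0.27, 1.04e-05) and Cacna1b (2.04 ± 0.19, 7.88e-07) followed.

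Kcnh8, an ELK-type potassium channel, rose by 1.24 ± 0.21 (limma adjusted p = 0.000167), with 19.7, 28.9 and 21.0 CPM in the Eomes-Lmx1a gate. Cacnb3, a calcium channel beta subunit, had 95.3, 108 and 95.9 CPM there against 51.3, 36.4 and 59.4 CPM in the Atoh1 gate, and rose by 0.99 ± 0.14 (limma adjusted p = 4.54e-05). Between the Atoh1 gate (36.4 to 68.7 CPM) and the Sox2 gate (37.9 to 75.04 CPM) Cacnb3 overlapped, with a difference of -0.12 (limma adjusted p = 0.578). The single member that fell was Kcnq3, a subunit of the M-current channel, with 22.5, 0 and 4.81 CPM in the Eomes-Lmx1a gate, against 43.8, 21.5 and 5.89 CPM in the Atoh1 gate. Its difference was -1.18 ± 0.37 (limma adjusted p = 0.0151), and the call was lost without RL-e14 replicate 2, whose Eomes-Lmx1a profile holds 25 cells. Kcnj3 lost its call without the e16 library (adjusted p = 0.063) or RL-e14 replicate 2, and Kcnk10 without RL-e14 replicate 2 or RL-e13 replicate 2.

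**Figure D4:**
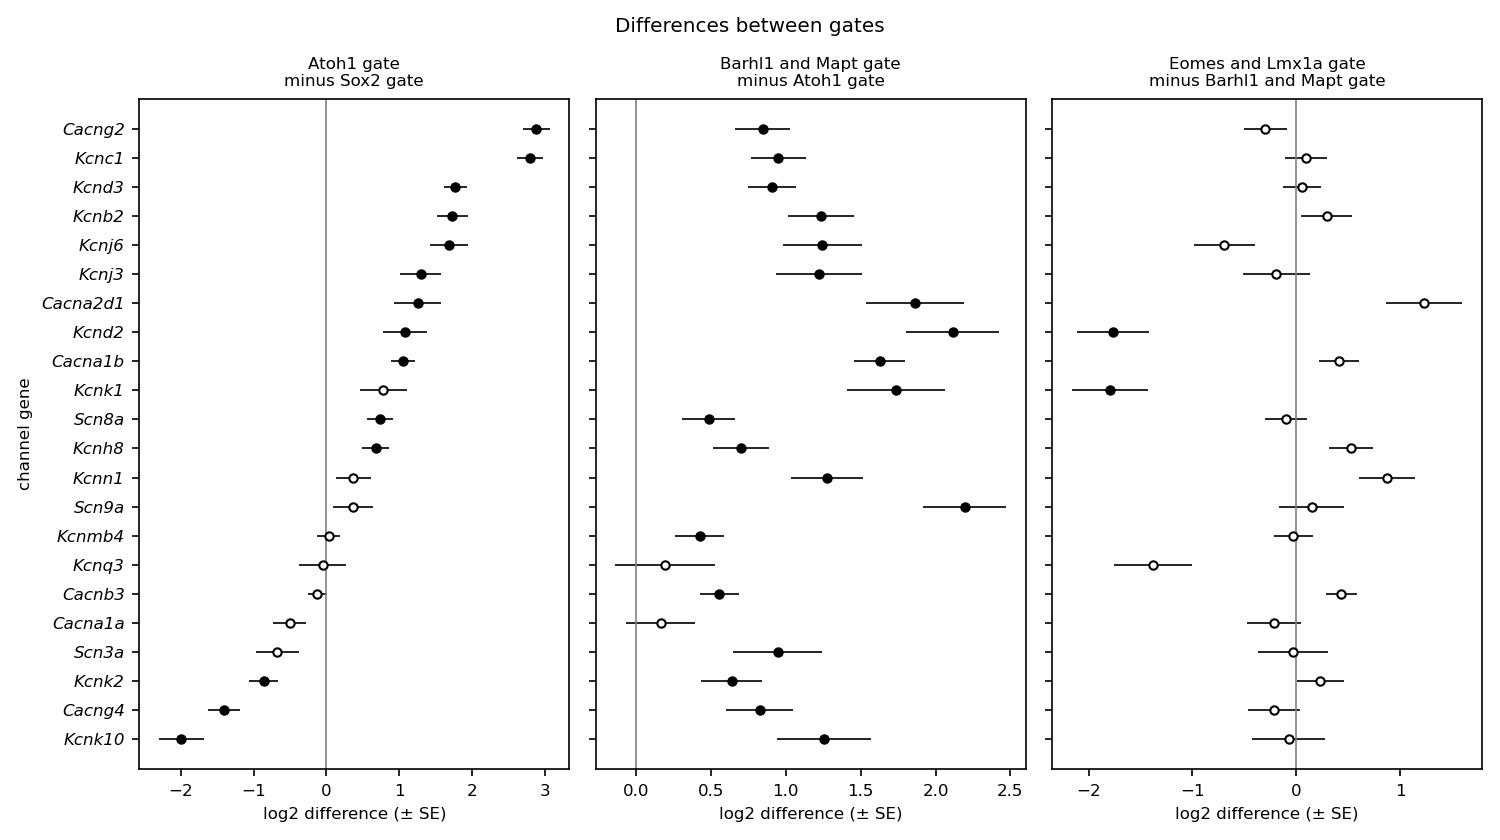
Log2 difference ± SE (horizontal axis) of tested channel genes (down the page) for Atoh1 over Sox2, Barhl1-Mapt over Atoh1 and Eomes-Lmx1a over Barhl1-Mapt, with filled points for an adjusted p under 0.05. Every gene drawn except Kcnq3 and Cacna1a is filled and right of 0 in the Barhl1-Mapt over Atoh1 panel, and Cacng2 and Kcnc1 lie farthest right in the Atoh1 over Sox2 panel, with Kcnk10 and Cacng4 farthest left.

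Each branch gate was then set over the Barhl1-Mapt gate, and the branch gates were not tested against each other. The Eomes-Lmx1a gate over the Barhl1-Mapt gate had 0 members higher and 2 lower of 25, where 0.118% of all genes tested were higher and 0.552% lower in limma. Before adjustment 10 members had limma p under 0.05, a threshold at which no share of all genes is given here. The Barhl1-Mapt gate itself held many cells with a UMI of Eomes or Lmx1a, 93.0% of them in e16. With those cells left out, an alternative chosen after seeing the data, more members were higher and more were lower. The closing section gives these counts, and RL-e14 replicate 2 then had no Barhl1-Mapt profile. Kcnd2 was at 13.1, 5.84 and 13.4 CPM in the Eomes-Lmx1a gate of RL-e13 replicate 2, RL-e14 replicate 2 and e16, against 29.0, 96.7 and 25.8 CPM in the Barhl1-Mapt gate of these libraries, and it fell by 1.76 ± 0.35 (limma adjusted p = 0.0264). Kcnk1 was at 28.9, 5.73 and 16.5 CPM in the Eomes-Lmx1a gate, against 74.5, 123 and 27.0 CPM in the Barhl1-Mapt gate, and fell by 1.79 ± 0.37 (limma adjusted p = 0.0328). Both were lower in the Eomes-Lmx1a gate in 3 of 3 libraries, although the gates overlap slightly for Kcnk1 across libraries, at 28.9 CPM against 27.0 CPM. Without e16 the differences were -2.15 for Kcnd2 and -2.27 for Kcnk1 (limma adjusted p = 0.0048 and 0.0042). Leaving out RL-e14 replicate 2 gave -1.14 and -1.01 (adjusted p = 0.63 and 0.57), and the calls were also lost without RL-e14 replicate 1 (0.22 for both) or RL-e13 replicate 2 (0.09 and 0.13).

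Between the Eomes-Lmx1a and Atoh1 gates the libraries went opposite ways for both genes. Kcnd2 was at 13.1, 5.84 and 13.4 CPM in the Eomes-Lmx1a gate, against 6.06, 8.66 and 10.00 CPM in the Atoh1 gate of those libraries (difference 0.35, limma adjusted p = 0.42). Kcnk1 was at 28.9, 5.73 and 16.5 CPM, against 15.1, 21.4 and 13.2 CPM in the Atoh1 gate (difference -0.06, limma adjusted p = 0.909). Cacna2d1 had a difference of 1.23 ± 0.37 between the Eomes-Lmx1a and Barhl1-Mapt gates that missed the threshold (limma adjusted p = 0.16), and without the e16 library it was 1.78 (adjusted p = 0.0015). Kcnn1 was at 47.0, 42.9 and 19.8 CPM in the Eomes-Lmx1a gate, against 15.5, 20.3 and 18.2 CPM in the Barhl1-Mapt gate. Its difference was 0.88 (limma adjusted p = 0.173), and 1.20 without e16 (adjusted p = 0.024). Kcnq3 likewise had -1.38 (adjusted p = 0.118) and, without e16, -1.97 (adjusted p = 0.012). The RL profiles of the Eomes-Lmx1a gate rest on 25 cells each. Brush lineage markers summed to 419 to 908 CPM in the Eomes-Lmx1a gate against 103 to 737 CPM in the Barhl1-Mapt gate, where the top value was e16, and their part in these differences was not tested.

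The Tlx3-Lhx1 gate over the Barhl1-Mapt gate had 0 members higher and 1 lower of 25, where 0.517% of all genes tested were higher and 0.917% lower in limma. Before adjustment 4 members had limma p under 0.05, a threshold at which no share of all genes is given here. Scn3a, a sodium channel of embryonic neurons, had 0, 0 and 3.64 CPM in the Tlx3-Lhx1 gate of RL-e14 replicates 1 and 2 and e16, against 19.9, 18.1 and 36.1 CPM in the Barhl1-Mapt gate. The zeros come from 27 and 30 cells, and 3 UMIs would have given 7.61 and 5.13 CPM there, under the Barhl1-Mapt values. The difference was -2.22 ± 0.34 (limma adjusted p = 0.00365), and -2.25 without e16 (adjusted p = 7.2e-05). Leaving out RL-e14 replicate 1 or 2 gave adjusted p of 0.089 and 0.086. The Eomes-Lmx1a gate kept Scn3a at 14.2 to 45.6 CPM. Kcnd2 was at 88.7, 75.3 and 93.0 CPM in the Tlx3-Lhx1 gate, and its difference from the Barhl1-Mapt gate was 0.69 (limma adjusted p = 0.343). Kcnc1, with 154, 108 and 161 CPM, held 8.19% of the summed channel level of the Tlx3-Lhx1 gate, and its difference was 0.23 (adjusted p = 0.636). Mki67, a proliferation marker, was at 139 and 110 CPM in the RL-e14 profiles of the Tlx3-Lhx1 gate and 30.0 CPM in e16. With the minimum at 3 CPM, Scn3b, a sodium channel beta subunit, and Kcnt2, a sodium-activated potassium channel, also fell in the Tlx3-Lhx1 gate, by 1.19 ± 0.22 (limma adjusted p = 0.0131) and by 1.01 (adjusted p = 0.0302), where 0.728% of the genes tested fell.

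Age was compared as e14 over e13 within the RL libraries, on the mean of each library's Sox2 and Atoh1 profiles, 2 libraries against 2. Of 17 members tested, 0 passed in limma, where 0.0% of 8416 genes passed. Before adjustment, 6 members and 1296 genes had p under 0.05. Kcnc1 averaged 36.1 CPM at e14 and 16.7 CPM at e13, a difference of 0.79 ± 0.25 (limma adjusted p = 0.242), and Kcnd3 19.3 CPM at e14 and 10.9 CPM at e13, a difference of 0.61 ± 0.21 (0.256). Scn3a averaged 14.2 CPM at e14 and 31.2 CPM at e13, a difference of -0.91 ± 0.19 (limma adjusted p = 0.219), and Cacnb3 42.4 CPM at e14 and 63.9 CPM at e13, a difference of -0.54 ± 0.17 (0.242). Kcnq3 averaged 27.0 CPM at e14 and 62.0 CPM at e13, a difference of -0.98 ± 0.31 (adjusted p = 0.243). In the Sox2 gate Kcnq3 was at 86.2 CPM in RL-e13 replicate 1 and 32.3 CPM in replicate 2, so the e13 libraries lay apart from each other. Without RL-e13 replicate 2, which leaves 1 library at e13 that is assumed to vary like the others, 5 members were higher and 4 lower at e14, where 3.9% of all genes tested were higher and 6.12% lower. Placing that library at e14 by its age tag again leaves e13 with RL-e13 replicate 1 alone, the library with the highest Kcnq3. Kcnq3 then passed, at -1.38 (limma adjusted p = 0.0338), and it was the single member to do so, where 0.238% of all genes tested were lower.

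The e16 library held a single profile per gate, so its difference from the RL libraries has no test. Counting members at 10 CPM or more in some library, e16 lay above the whole RL range for 17 of 31 in the Atoh1 gate, 22 of 39 in the Barhl1-Mapt gate, 21 of 40 in the Eomes-Lmx1a gate and 26 of 40 in the Tlx3-Lhx1 gate. Of all genes at that level, 33.4%, 33.6%, 33.9% and 39.4% lay above it in the same gates. It lay below that range for 5, 8, 4 and 9 members, where 32.9%, 30.6%, 30.1% and 32.8% of all genes did. It was at least 2 times the highest RL value for 9, 5, 9 and 10 members. Of members above 0 in e16, the lowest RL value was at least 2 times the e16 value for 2, 3, 2 and 4. The share of all genes at these folds was not counted.

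Cacna2d1 had 391 CPM in the Barhl1-Mapt gate of e16, from 3073 UMIs (exact Poisson 95% interval 2965 to 3184, counting error only), against 34.7 to 78.9 CPM in the RL libraries. Kcnip4, a cytoplasmic partner of Kcnd channels that modulates their currents, had 48.5 CPM there from 381 UMIs (344 to 421), against 0.906 to 3.29 CPM in the RL libraries. In the Eomes-Lmx1a gate Kcnip4 was at 60.5 CPM in e16, from 837 UMIs (781 to 896), against 1.64 and 13.9 CPM in the RL libraries. Its paralogue Kcnip3 ran the other way in the Barhl1-Mapt gate, at 3.39 CPM in e16 against 15.9 to 23.9 CPM in the RL libraries. In that gate Kcnk2 had 48.9 CPM in e16 from 385 UMIs (347 to 425), against 6.47 to 10.6 CPM in the RL libraries, and Kcnq3 had 5.79 CPM in e16 from 52 UMIs (38.8 to 68.2), against 31.4 to 47.1 CPM in them. Otx2, a brush lineage marker, was at 501 CPM in the e16 Barhl1-Mapt gate against 59.4 to 127 CPM in the RL libraries, and its part in these values was not tested.

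**Figure D5:**
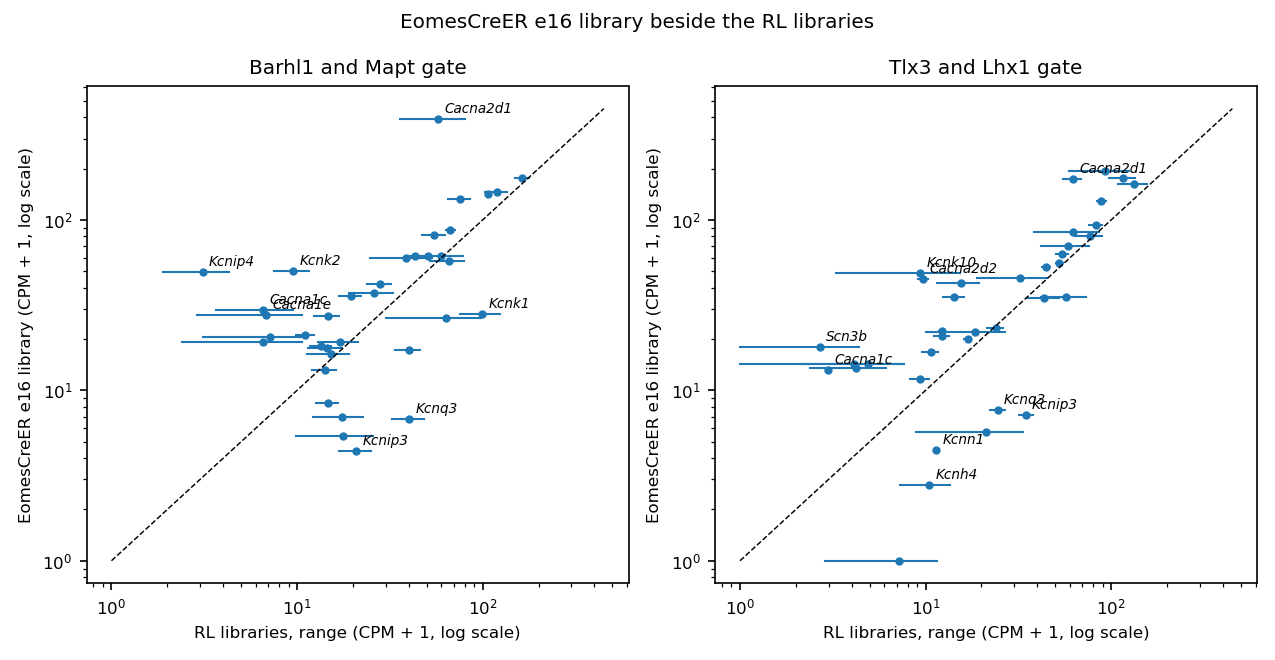
Level in the e16 library (vertical axis, CPM plus 1, log scale) against the range over the RL libraries (horizontal line with a dot at its middle, same scale) for channel genes at 10 CPM or more in a library, in the Barhl1-Mapt gate (left) and the Tlx3-Lhx1 gate (right), with a dashed line for equal levels. In the left panel Cacna2d1 and Kcnip4 lie above the line and Kcnq3 and Kcnip3 below it.

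A list of 70 partner genes in the tables was set beside the channels, covering scaffold, pump, exchanger and accessory proteins, of which 35 were tested. Between the Atoh1 and Sox2 gates 13 rose and 6 fell, where 9.66% of all genes tested rose and 11.4% fell. Ank3 (ankyrin-G), which anchors sodium channels at the axon initial segment, averaged 46.6 CPM in the Atoh1 gate and 12.1 CPM in the Sox2 gate, a difference of 1.29 ± 0.21 (limma adjusted p = 0.000277). Nfasc (neurofascin), an adhesion molecule of the same site, averaged 38.0 CPM in the Atoh1 gate and 10.7 CPM in the Sox2 gate, a difference of 1.48 ± 0.18 (9.02e-06). Atp2b2, a plasma membrane calcium pump, averaged 62.7 CPM in the Atoh1 gate and 5.95 CPM in the Sox2 gate, a difference of 2.61 ± 0.16 (limma adjusted p = 5.04e-09).

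Between the Barhl1-Mapt and Atoh1 gates 21 partners rose and 3 fell, where 22.1% of all genes tested rose and 19.7% fell. Ank3 averaged 306 CPM in the Barhl1-Mapt gate and 46.6 CPM in the Atoh1 gate, a difference of 2.76 ± 0.22 (limma adjusted p = 2.23e-07). Dpp6, an auxiliary subunit of Kcnd channels, averaged 305 CPM in the Eomes-Lmx1a gate and 46.6 CPM in the Atoh1 gate, a difference of 2.48 ± 0.21 (limma adjusted p = 3.91e-07), while Kcnd2 averaged 10.8 CPM in the Eomes-Lmx1a gate and 6.98 CPM in the Atoh1 gate. In that comparison 24 partners rose and 3 fell, where 22.3% of all genes tested rose and 23.6% fell. Between the Eomes-Lmx1a and Barhl1-Mapt gates 0 rose and 2 fell (Atp1b3 among them). Between the Tlx3-Lhx1 and Barhl1-Mapt gates 0 rose and 3 fell (Fgf12, Slc24a2 and Nrcam). At e14 against e13, 0 of 23 tested passed in limma. Before adjustment 3 of the 23 had limma p under 0.05, and the count over all genes at that threshold stands with the age comparison above. The calls of Atp1b3, Fgf12 and Slc24a2 were lost without RL-e13 replicate 2 or without either RL-e14 library, and that of Nrcam without e16, RL-e14 replicate 2 or RL-e13 replicate 2.

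The annotation limits some of these counts. In GENCODE vM21, on mm10, 25 of 34 named members overlap another gene on the opposite strand and 10 overlap another gene on the same strand, and no source used here states whether the counting used strand. Kcnd2 lies at chr6:21215503-21729805 (plus strand), Kcnk1 at chr8:125995170-126030685 (plus strand), Cacna2d1 at chr5:15934691-16374511 (plus strand) and Scn3a at chr2:65457118-65567627 (minus strand). Kcnk1 and Scn3a each overlap 1 gene on the opposite strand, Cacna2d1 overlaps 2 on the opposite strand and 1 on the same strand, and Kcnd2 overlaps 3 on the same strand.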

How the data were processed

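Libraries were made with 10x Chromium 3′ kits, per the labels' protocols, and Cell Ranger and mm10 are named in the submitters' processing notes. The authors deposited natural log values, ln(1 + 10000 × UMIs / total UMIs of the cell), for 15971 genes and 6987 cells in 1 table, and a deposited annotation of the cells gave their library. Whole UMI counts were recovered from 100.0% of 29540669 values above 0 (tolerance 0.01). The batch name that no label matched was given to the e16 library by elimination, and 6 barcodes occur in 2 or more libraries. No further doublet or cell filter was applied, so each gate may hold doublets and free RNA.

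Profiles were mean CPM per gate and library, as the deposited values are not counts per sample. They were tested with limma 3.58.1 in R 4.3.3 on log2(CPM + 5) with a trend and a library block, a minimum mean of 10 CPM and Benjamini-Hochberg adjustment at 0.05, and the age contrast with 1 mean profile per library. The code was tested on simulated data. Thinning used exact expectations in Python 3.11.15. Named genes were called members of 20 CPM or more with the same direction in every library (up to 10 each way), the highest 2 of each family, genes 4 times higher in 1 gate, and up to 3 partners each way; values of other members (Scn3a at the other gates, Kcnh8, Kcnt2, Kcnip3 and those given with a missed threshold) were added after their values were seen. Some genes are not reported here. The members and lists were chosen with earlier results of these data known. Replicate numbers carried no pairing (correlation 0.018 over 8510 genes). Intervals and floors cover counting error only. Alternatives changed the gates, filter, pseudocount, scaling, block, weights and libraries.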

Additional observations from a re-analysis of the deposited data

Results flagged for a closer look

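In groups of 4 or 5 libraries, 9 of 59 gene and gate groups held a library far from the rest. A group was examined only if its highest library was at 10 CPM or more, so 1 high library could bring it in. The groups also share their libraries, so no chance rate is set beside this count. All 9 were the e16 library on the high side. In the Atoh1 gate, Cacna2d1 was at 156 CPM in e16 against 7.55 to 13.6 CPM in the RL libraries, and Kcnb2 at 91.7 CPM against 14.1 to 30.8 CPM. Cacna1b was at 21.6 CPM against 7.97 to 10.9 CPM. Hcn3 was at 18.1 CPM against 5.09 to 7.49 CPM, Kcnip4 at 13.6 CPM against 0 to 0.764 CPM, and Scn3b at 11.3 CPM against 2.71 to 3.55 CPM. The e16 Atoh1 profile rests on 34 cells and held 729.9 CPM of Otx2, against 36.2 to 208 CPM in the RL libraries; its part in these values was not tested. In the Barhl1-Mapt gate, Cacna2d1 was at 391 CPM in e16 against 34.7 to 78.9 CPM, Kcnip4 at 48.5 CPM against 0.906 to 3.29 CPM, and Kcnc1 at 140.1 CPM against 104 to 107 CPM. The age difference did not differ between the Sox2 and Atoh1 gates for any of 17 members in limma. Of these, 2 had p under 0.05 before adjustment, a threshold at which no share of all genes is given here.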

How the results depend on the processing

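Of the group counts and sums, 179 values under alternatives stayed near the value reported and 51 moved. For single genes 1499 stayed on their side of the threshold, 161 lost and 23 gained a call, and 4 changed sign. For the Atoh1 gate over the Sox2 gate, 9 members rose in a fit of those 2 gates alone, and the number that fell was 9 with a 3 CPM minimum, 13 with no filter, 6 with gates at 200 CPM, 5 without cells of several gates, 7 with 50 cells per profile and 7 in the 2-gate fit. For Barhl1-Mapt over Atoh1, 35 rose and 1 fell at 3 CPM, 14 rose with gates at 1 UMI, and 13 with Barhl1-Mapt cells lacking Eomes and Lmx1a UMIs (chosen after seeing the data), where Kcnk2 turned to -0.12. For Eomes-Lmx1a over Atoh1, 27 rose and 4 fell at 3 CPM, 26 and 8 with no filter, 11 and 0 in the 2-gate fit, and 0 fell without a library block. There, Kcnd2 turned to -0.0024 with gates at 1 UMI, and Kcnk1, at -0.45 to 0.53 with 1 library left out (0.53 without RL-e14 replicate 2), to 0.20 with depth weights (chosen after seeing the data). For Eomes-Lmx1a over Barhl1-Mapt, 3 rose at 1 UMI and 5 with Barhl1-Mapt cells lacking those UMIs, where 4 fell, and the number that fell was 0 with no filter, 1 without the 5% deepest cells, 1 without a library block and 0 in the 2-gate fit. For Tlx3-Lhx1 over Barhl1-Mapt, 3 fell at 3 CPM and with no filter. At e14 against e13, 1 fell by the age tag. The cause of these changes was not tested. Leaving out 1 library at a time gave 12 to 14 higher and 3 to 4 lower for Atoh1 over Sox2, 17 to 23 and 0 for Barhl1-Mapt over Atoh1, 12 to 17 and 0 to 1 for Eomes-Lmx1a over Atoh1, 0 to 2 and 0 to 4 for Eomes-Lmx1a over Barhl1-Mapt, 0 and 0 to 1 for Tlx3-Lhx1 over Barhl1-Mapt, and 0 to 5 and 0 to 4 for e14 over e13. The summed level was 1372 CPM in the Barhl1-Mapt gate at 1 UMI, 2265 CPM in the Eomes-Lmx1a gate at 200 CPM and 2159 CPM in the Tlx3-Lhx1 gate without cells of several gates. At 3000 UMIs a cell held 1.88, 2.23, 4.48, 4.55 and 4.41 channel genes in the Sox2, Atoh1, Barhl1-Mapt, Eomes-Lmx1a and Tlx3-Lhx1 gates, and 6.92, 9.50, 14.8, 13.5 and 14.8 unthinned. A replicate block on the age contrast called 0 members either way. Gates at 200 CPM, 50 cells per profile and leaving out cells of several gates left the Eomes-Lmx1a and Tlx3-Lhx1 gates in 1 library, with no test. Profiles of 25 to 30 cells limit those gates.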
